A study of Schizosaccharomyces pombe with 2 samples.

Results

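The hexose transporter family of fission yeast, Schizosaccharomyces pombe, was compared between 1 library of cells lacking ppr10 and 1 library of wild-type cells, both grown to logarithmic phase. The 7 members, ght1, ght2, ght3, ght4, ght5, ght6 and ght8, were taken by their gene identifiers from 5076 genes listed; the rule uses no measured value, but the family was picked with earlier results of these data known. All 7 were found, and all 7 had a mean level of at least 1 RPKM (reads per gene, scaled to gene length and to library size) over both libraries, as did 4986 genes in all. The labels give no further allele, strain background, medium or glucose concentration for either culture, and the only stated difference between the groups is the deletion of ppr10, whose protein product is an RNA-binding pentatricopeptide repeat protein of mitochondria. The series text says that the comparison was made to look for what makes cells die. Each group has 1 library, so no difference could be set against the spread between cultures. No test of the conditions was possible, and the 95% intervals given here cover counting error only.

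Ght proteins are sugar transporters of the plasma membrane that belong to the major facilitator superfamily and carry sugar into the cell together with protons. Fission yeast grows by fermenting glucose, and the members differ in their affinity and in the sugar they carry. By annotation and published work, Ght5 and Ght1 are high-affinity glucose transporters, and Ght5 is annotated for fructose as well. Ght2 and Ght6 also carry glucose and fructose, and Ght3 carries gluconate, an oxidised form of glucose. Ght4 and Ght8 are annotated as hexose transporters without a stated preference. Transcription of ght5 is known to be repressed by ample glucose through the zinc-finger repressor Scr1, and the place of the Ght5 protein at the cell surface depends on the kinase complex TORC2 and its target Gad8.

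Reads mapped uniquely to genes numbered 16885000 in the deletion library and 17053000 in the wild-type library, to the nearest 1000. The deleted gene had 12 reads in the deletion library and 1879 in the wild-type library. That is 0.459 RPKM in the deletion and 71.2 RPKM in the wild type, in the direction the labels require. In the deletion library the 12 reads covered 69.8% of the gene by the deposited coverage score, and their source was not tested. Among the 4986 genes, the median log2 difference (deletion over wild type, with 1 RPKM added to each level) was 0.05. Genes whose difference reached 2-fold are called higher or lower in the deletion library.

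Several members are closely related, which bears on counts of uniquely mapped reads. In the later assembly ASM294v3, the encoded proteins of ght5 and ght8 were identical at 91.6% of aligned residues, and those of ght3 and ght4 at 86.9%. The remaining pairs lay between 55.9%, for ght3 and ght6, and 77.3%, for ght1 and ght5. In all 35 cases where a gene had 1 read in a library, the deposited coverage score corresponded to 150 bases of the gene, within 0.5 bases, which is taken here as the length of a read. Of all 150-base windows in the coding sequence of ght5, 11.4% occurred elsewhere in the genome. All of these lay in ght8, and some, 2.21% of all windows, lay in ght1 as well. The share found elsewhere was 22.4% for windows of 100 bases and 37.4% for windows of 50 bases. The longest stretch identical between ght5 and ght8 was 248 bases. The share of 150-base windows found elsewhere was 11.4% for ght8, 5.97% for ght4, 5.99% for ght3 and 2.16% for ght1. No 150-base window of ght6 or ght2 occurred elsewhere. A read from such a stretch alone cannot be assigned to 1 gene, so levels of ght5, ght8, ght3, ght4 and ght1 are uncertain. The effect of these stretches on the counts was not tested.

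The gene for the high-affinity transporter Ght5 was the 1 member past the 2-fold limit. The gene ght5 (SPCC1235.14, chromosome III) had 340.5 RPKM in the deletion library, from 9434 reads, against 54.1 RPKM in the wild-type library, from 1513 reads. The counting interval was 333.6 to 347.4 RPKM in the deletion and 51.4 to 56.9 RPKM in the wild type, so the intervals lay far apart. The level in the deletion library was 6.30-fold that in the wild type (5.96 to 6.65), a log2 difference of 2.63. Over all genes tested, 2.79% were higher and 1.14% were lower by the same rule, beside 1 higher and 0 lower of the 7 members. By a 1.5-fold rule 7.94% of the genes tested were higher and 4.49% were lower, and ght5 was again the 1 member called. That holds with 1 RPKM added. With 0.1 RPKM added the log2 difference of ght1, 0.84, was past 1.5-fold. By level, ght5 ranked 452 of 5076 genes in the deletion library and 3011 in the wild-type library. It had the 18th largest positive difference of the 4986 genes tested. No annotated gene overlapped the coding sequence of ght5 on either strand. In RNA from whole cultures, more transcript in each cell and more cells that express the gene cannot be told apart.

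**Figure D1:**
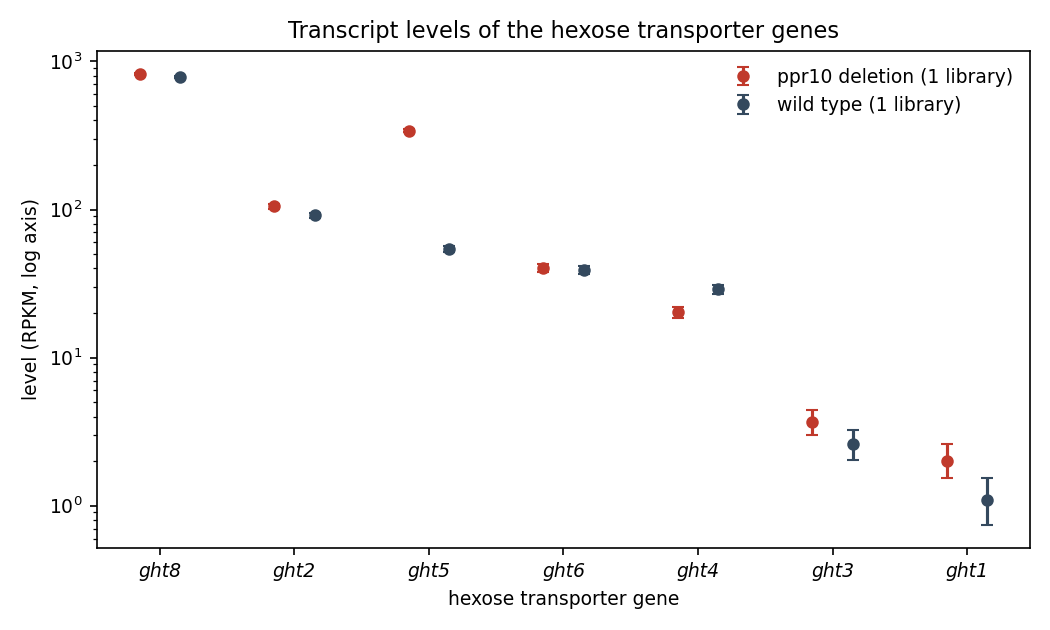
Levels of the 7 hexose transporter genes in RPKM on a log axis, ordered by the wild-type level, with the ppr10 deletion library left of the wild-type library for each gene. Points are single libraries and bars are exact Poisson 95% intervals for counting error; ght5 stands at 340.5 RPKM in the deletion and 54.1 RPKM in the wild type, while the points of ght8, ght2 and ght6 lie close together.

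The most abundant member, ght8 (SPCC548.06c, chromosome III), had 820.6 RPKM in the deletion library and 782.5 RPKM in the wild-type library. These levels rest on 22779 reads in the deletion and 21937 in the wild type. Its ratio was 1.05 (1.03 to 1.07) and its log2 difference 0.07, close to the median gene. It ranked 171 in the deletion library and 197 in the wild-type library. Annotated antisense RNA genes covered 64.2% of its coding length, and the sources used here do not say whether strand was recorded, so reads of both strands cannot be told apart. The closest relative of ght5 by sequence was thus nearly level between the libraries.

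The genes for the glucose and fructose carriers Ght2 and Ght6 differed little. The gene ght2 (SPBC4B4.08, chromosome II) had 105.1 RPKM from 2831 reads in the deletion and 91.6 RPKM from 2494 reads in the wild type, a ratio of 1.15 (1.09 to 1.21). The gene ght6 (SPCC1235.13, chromosome III) had 40.4 RPKM in the deletion and 38.9 RPKM in the wild type, from 1096 reads in the deletion and 1067 in the wild type. Its ratio of 1.04 (0.953 to 1.13) was not distinguishable from 1 at this depth. Both values may include antisense RNA, since annotated antisense genes covered 89.0% of the coding length of ght2 and 100% of that of ght6.

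The gene ght4 (SPBC1683.08, chromosome II) was the 1 member with a lower level in the deletion library. It had 20.2 RPKM from 572 reads in the deletion and 28.9 RPKM from 826 reads in the wild type. The ratio was 0.699 (0.628 to 0.779), a log2 difference of −0.50, which did not reach the 2-fold limit. Antisense genes covered 45.5% of its coding length.

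The gene for the gluconate carrier, ght3 (SPAC1F8.01, chromosome I), was weakly expressed, with 3.66 RPKM from 103 reads in the deletion and 2.60 RPKM from 74 reads in the wild type. The ratio was 1.41 (1.03 to 1.92). Its near relative ght4 differed in the other direction. The rank of ght3 was 4908 in the deletion and 4921 in the wild type, among the least abundant genes. Antisense genes covered 22.1% of its coding length.

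The weakest member was ght1 (SPCC548.07c, chromosome III), although its product is annotated as a high-affinity glucose transporter like that of ght5. It had 2.02 RPKM from 57 reads in the deletion library and 1.09 RPKM from 31 reads in the wild-type library. The ratio was 1.86 (1.18 to 2.98), an interval that holds both a small difference and one above 2-fold. With the added 1 RPKM the log2 difference was 0.53, and it ranged from 0.21 to 0.84 with 5 or 0.1 RPKM added. Antisense genes covered 2.57% of its coding length.

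**Figure D2:**
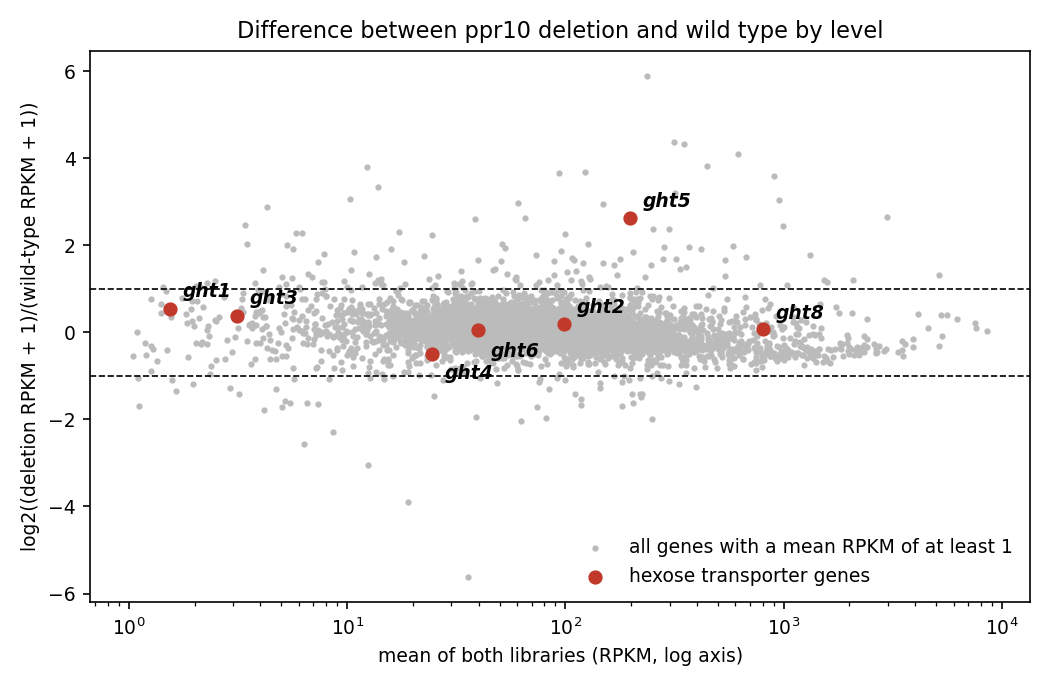
Log2 difference between the ppr10 deletion and wild-type libraries against the mean level in RPKM on a log axis, for 4986 genes in grey and the 7 hexose transporter genes in red. The dashed lines mark 2-fold; ght5 lies above the upper line at 2.63, and the other members lie between −0.50 and 0.53.

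As a list, 6 of 7 members had a positive log2 difference, as did 57.1% of all genes tested, and the members ran from −0.50 to 2.63. Their median was 0.20, against 0.05 over all genes tested. The median describes ght2 and not ght5, which stood alone above the limit; the next largest difference was that of ght1, at 0.53.

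The order of the members by level was nearly the same in both libraries. In the deletion library it ran from ght8 through ght5, ght2, ght6, ght4 and ght3 to ght1. In the wild-type library ght2 stood above ght5, and the order was otherwise the same. No neighbours in either order had overlapping counting intervals, but with 1 library per group the spread between cultures is unknown. The intervals also leave out antisense RNA and reads lost where members share sequence. The order of members at close levels is therefore uncertain. In the wild type the smallest steps were from ght6 to ght4 (1.34-fold) and from ght5 to ght6 (1.39-fold). In the deletion library the step from ght5 to ght2 was 3.24-fold and that from ght6 to ght4 was 1.99-fold. The level of ght8 was 407-fold that of ght1 in the deletion library and 721-fold in the wild type.

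The make-up of the family's transcripts moved with ght5. In the deletion library ght5 held 25.6% of the summed RPKM of the 7 genes, against 5.41% in the wild type. The share of ght8 was 61.6% in the deletion and 78.3% in the wild type, although its own level was slightly higher in the deletion. The share of ght2 was 7.88% in the deletion and 9.17% in the wild type, that of ght6 was 3.03% in the deletion and 3.89% in the wild type, and that of ght4 was 1.52% in the deletion and 2.89% in the wild type. The shares of ght3 (0.275% in the deletion, 0.260% in the wild type) and ght1 (0.151% in the deletion, 0.109% in the wild type) were the smallest. Within a library, the level of ght5 was 0.415 of that of ght8 in the deletion and 0.0691 of it in the wild type.

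**Figure D3:**
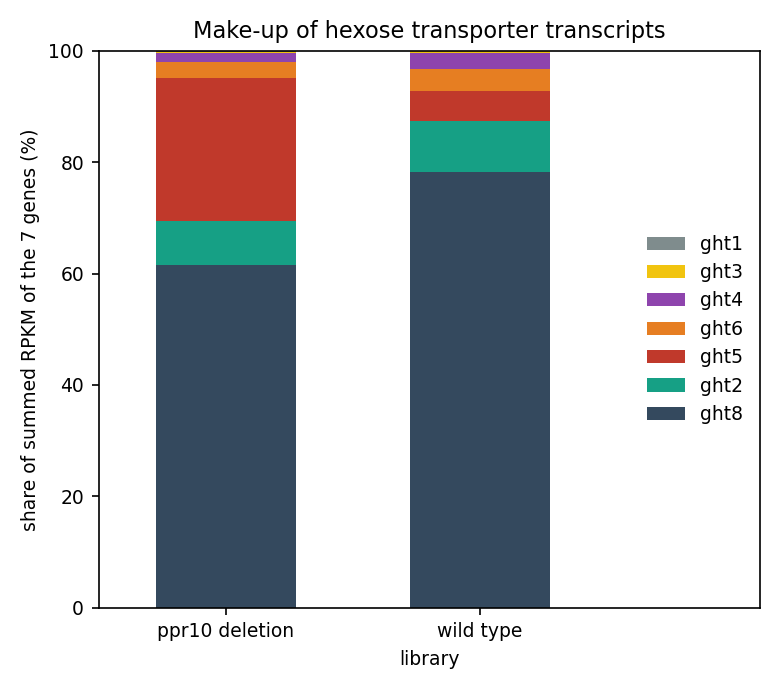
Share of each gene in the summed RPKM of the 7 hexose transporter genes, in percent, in the ppr10 deletion library (left) and the wild-type library (right). The segment of ght5 takes 25.6% in the deletion and 5.41% in the wild type, and that of ght8 takes 61.6% in the deletion and 78.3% in the wild type.

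The summed level of the family was 1332 RPKM in the deletion library and 999.7 RPKM in the wild type, a ratio of 1.33. Counted as reads without scaling to length, the family had 36872 reads in the deletion and 27942 in the wild type, with a ratio of 1.33 (1.31 to 1.35). The difference in summed level was 332.6 RPKM, of which ght5 made up 86.1% and ght8 11.5%. The part of ght8 rests on a log2 difference of 0.07, against 0.05 for the median gene. After scaling to the median gene, that of ght8 was 0.02. Without ght5, the other 6 genes summed to 991.9 RPKM in the deletion and 945.7 RPKM in the wild type, a ratio of 1.05.

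The members on chromosome III lie close together, and the genes around ght5 had smaller differences. From ght6 to ght1 the annotation of ASM294v3 lists 10 protein-coding genes that are in the table, 4 of them members, in the order ght6, SPCC1235.17, SPCC1235.18, ght5, dga1, wtf4, urm1, dbl5, ght8 and ght1. None of the 6 other genes was higher or lower by the 2-fold rule, and their log2 differences lay between −0.73 and 0.75. Directly beside ght5, dga1, which encodes an enzyme of triacylglycerol synthesis, had 174.9 RPKM in the deletion and 162.0 RPKM in the wild type (ratio 1.08, 1.03 to 1.14). On the other side, the uncharacterised gene SPCC1235.18 had 20 reads in the deletion and 39 in the wild type, and SPCC1235.17 had 17 reads in the deletion and 13 in the wild type. The value of the meiotic drive gene wtf4, with 148 reads in the deletion and 81 in the wild type, is uncertain, since 84.7% of the 150-base windows in its coding exons occurred elsewhere in the genome. Reads of urm1 and dbl5 cannot be fully told apart where these genes overlap; their log2 differences were −0.52 and 0.18. Outside the block, mug146, next to ght6, had 10 reads in the deletion and 40 in the wild type, a log2 difference of −1.10. Next to ght1, the transporter gene SPCC1529.01 stood at −0.16 and gcd1 at 0.31.

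**Figure D4:**
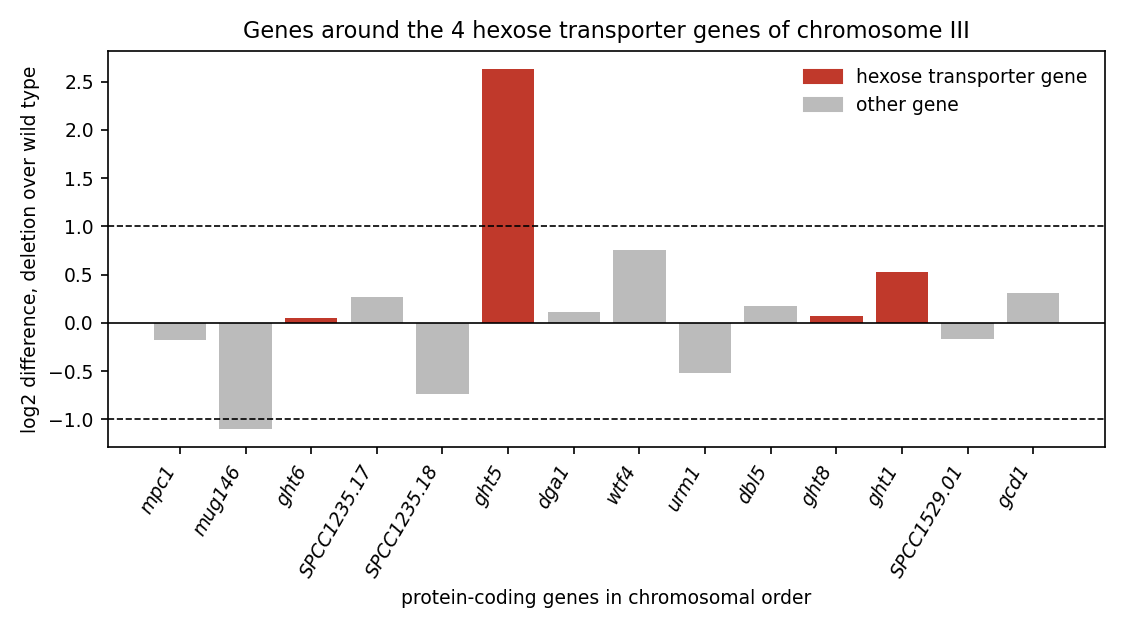
Log2 difference between the ppr10 deletion and wild-type libraries for 14 protein-coding genes in chromosomal order around the 4 hexose transporter genes of chromosome III, with those genes in red and others in grey. Dashed lines mark 2-fold; ght5 reaches 2.63, and between ght6 and ght1 no other gene crosses a line.

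The other members lie alone, and those of chromosomes I and II have neighbours of differing kinds. On chromosome I, ght3 stands beside shu1, the gene of a haem acquisition protein, with 23.8 RPKM in the deletion and 0.775 RPKM in the wild type (log2 difference 3.81). Next to shu1 is str3, a siderophore transporter gene, with 67.0 RPKM in the deletion and 10.2 RPKM in the wild type (2.60). On its other side SPAPJ695.02 had 30 reads in the deletion and 1 in the wild type (ratio 30.3, 5.04 to 1236), and SPAPJ695.01c had 3 reads in the deletion and 0 in the wild type. On chromosome II, ght4 lies between the maltase gene mal1, at a log2 difference of 0.37, and the ferric reductase gene frp1, at 2.04. Beyond frp1 is the vacuolar iron transporter gene pcl1, at −1.42, and beyond mal1 the uridine hydrolase gene urh1, at 0.37. The neighbours of ght2 were vps25 (0.38), usp102 (−0.19), prp39 (−0.20) and atg5 (0.31). Among all 22 neighbours that are no member, 4 were higher, 2 were lower and 15 lay between. SPAPJ695.01c was too weakly expressed to be counted. The shares over all genes tested were 2.79% higher and 1.14% lower. All 4 higher neighbours lie near ght3 (SPAPJ695.02, shu1 and str3) or ght4 (frp1), and the 2 lower ones near ght6 (mug146) and ght4 (pcl1). The call of mug146 rests on 10 reads in the deletion and 40 in the wild type, at a mean of 1.57 RPKM. That of pcl1 rests on 1341 reads in the deletion and 3638 in the wild type.

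Genes of glucose repression, glucose sensing, transporter trafficking and sugar use were examined as lists, whether or not they are known to act on ght5. Over all genes tested, 2.79% were higher and 1.14% lower, so lists of this size are read only as descriptions. Among 6 genes of glucose repression 1 was higher and 5 lay between; their median log2 difference was 0.41. The 1 was scr1, the gene of the repressor named above, with 20.2 RPKM from 580 reads in the deletion and 9.05 RPKM from 262 reads in the wild type (ratio 2.24, 1.93 to 2.60). Its log2 difference of 1.08 became 0.84, under the limit, with 5 RPKM added. The gene of Rst2, the activator of glucose-repressed genes, had a log2 difference of 0.45, and the corepressor genes tup11 and tup12 had −0.004 and 0.08. The glucose-repressed genes fbp1, for fructose-1,6-bisphosphatase, and inv1, for invertase, stood at 0.38 and 0.64. These 5 were named for their roles, with their values known.

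None of 12 genes of glucose sensing through cyclic AMP was higher or lower, and the median was 0.23. The largest log2 differences were those of pka1, the catalytic subunit of protein kinase A (0.57), and of the related kinase gene sck1 (0.44). All 4 genes of the AMP-activated kinase pathway lay between, with a median of 0.18 and with ssp1, the upstream kinase gene, at 0.33 and ssp2, the catalytic subunit gene, at 0.23. All 15 genes of TORC2 and of transporter trafficking also lay between, with a median of 0.30. The largest were aly2, an arrestin-related gene (0.69), and gad8, the kinase that acts below TORC2 (0.66), with 97.6 RPKM in the deletion and 61.2 RPKM in the wild type.

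Over all genes tested, 57.1% of log2 differences were positive and the median was 0.05. In the lists of genes that act on sugar inside the cell and outside it, none was lower and most differences were positive. Of 7 genes of hexose phosphorylation and gluconate use, 1 was higher and 6 lay between, all 7 differences were positive, and the median was 0.31. The 1 was zwf1, for glucose-6-phosphate dehydrogenase, with 634.6 RPKM in the deletion and 315.1 RPKM in the wild type. Its ratio of 2.01 (1.96 to 2.07) lay at the limit, and its log2 difference was 0.96 when the deletion library was scaled to the median gene. It was 0.9987, just under the limit, with 5 RPKM added, and 0.9996 with library totals that leave out the 50 most abundant genes. Of 7 genes of sugar release and galactose use, 6 could be counted; 2 of them were higher, 4 lay between, and the median was 0.79. The higher ones were agl1, a maltose-splitting glucosidase gene (20.4 RPKM in the deletion and 8.16 RPKM in the wild type), and gal10, the epimerase gene of galactose use (13.8 RPKM in the deletion and 5.58 RPKM in the wild type). Their log2 differences of 1.22 and 1.17 became 0.95 and 0.83 with 5 RPKM added. The galactose genes did not share a direction: the galactokinase gene gal1 had 20.8 RPKM in the deletion and 33.4 RPKM in the wild type (−0.66), and gal7, for the uridylyltransferase, had 38.1 RPKM in the deletion and 19.3 RPKM in the wild type (0.94). The gene that could not be counted was mel1, for melibiase, with 22 reads in the deletion and 1 in the wild type (ratio 22.2, 3.59 to 917). The last 3 were chosen after their values were seen.

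The 4 other carriers of sugars and polyols had positive log2 differences, with a median of 0.60, and none was past the limit with 1 RPKM added. Of all genes tested, 57.1% had a positive difference, and their median was 0.05. The myo-inositol transporter gene itr1 had 152.9 RPKM in the deletion and 92.4 RPKM in the wild type (0.72), and itr2 had 631.4 RPKM in the deletion and 429.8 RPKM in the wild type (0.55). The further family gene ght7, on chromosome II, named here as a relative, had 51 reads in the deletion and 23 in the wild type. That is 1.94 RPKM in the deletion and 0.866 RPKM in the wild type, a ratio of 2.24 (1.34 to 3.84) and a log2 difference of 0.66. With 0.1 RPKM added in place of 1 its log2 difference was 1.08, past the limit.

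**Figure D5:**
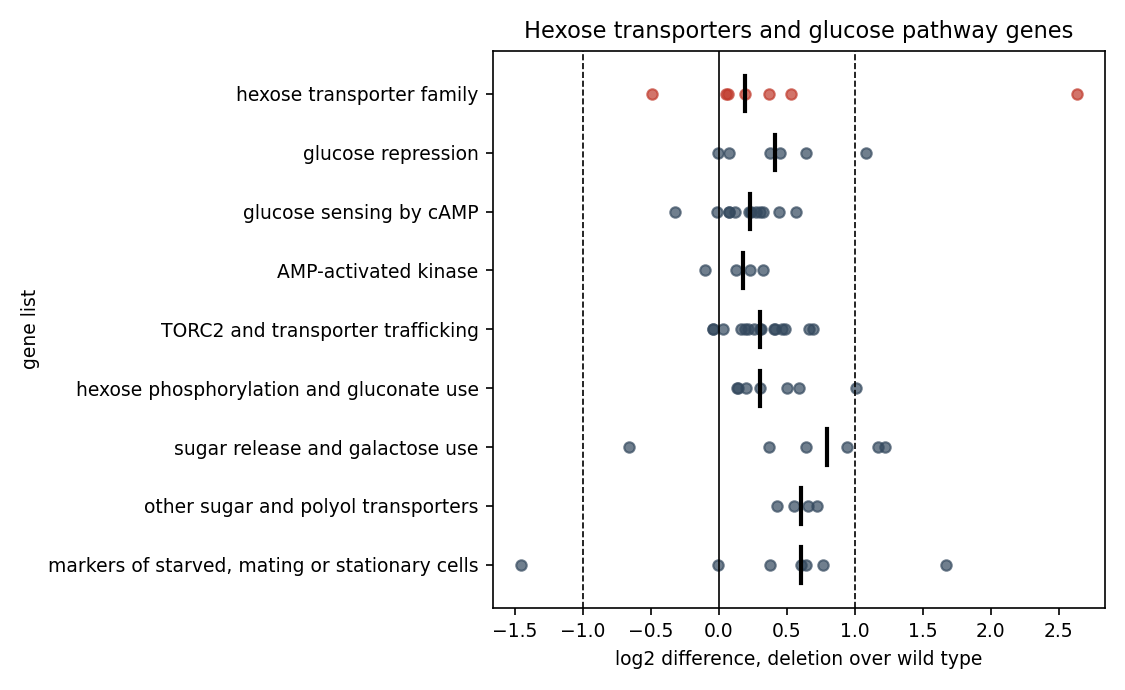
Log2 difference between the ppr10 deletion and wild-type libraries for the hexose transporter genes (top, red) and for the genes of 8 other lists, with 1 point per gene, list medians as black bars and 2-fold as dashed lines. The ght5 point lies at 2.63, to the right of every other point shown. The medians of all lists are positive, from 0.18 to 0.79, beside a median of 0.05 over all genes tested.

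Markers of starved, mating or stationary cells were examined because hexose transporter genes respond to nutrients. Of 7 such genes, hsp9 was higher, isp4 was lower and 5 lay between; the median was 0.60. Their summed level was 989.8 RPKM in the deletion library and 399.1 RPKM in the wild type, and most of it came from hsp9: without that gene the other 6 summed to 170.7 RPKM in the deletion and 142.7 RPKM in the wild type, a ratio of 1.20. The stress gene hsp9 had 819.1 RPKM in the deletion and 256.4 RPKM in the wild type. The oligopeptide transporter gene isp4 had 12.9 RPKM in the deletion and 37.2 RPKM in the wild type, which lowers the ratio of 1.20. The mating regulator gene ste11 stood at a log2 difference of 0.77 and the meiotic regulator gene mei2 at −0.01. The remaining markers were the vacuolar protease gene isp6, at 0.60, and inv1 and fbp1, given above, at 0.64 and 0.38. All of these were named with their values known. The part of culture state in the level of ght5 was not tested.

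The 4 genes at a mean of at least 5 RPKM whose log2 difference was nearest to that of ght5 were SPBC23G7.10c (2.62), gst2 (2.65), str3 (2.60) and SPCC1235.01 (2.44). Of these, gst2 encodes a glutathione S-transferase and str3 a siderophore transporter. Their ratios lay between 5.45 and 6.58, against 6.30 for ght5. Likeness here means a close difference between 2 libraries and nothing more.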

How the data were processed

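RNA was sequenced from 1 ppr10 deletion and 1 wild-type culture. The deposited table gives counts of uniquely mapped reads per gene, RPKM values and a coverage score, per the file headers. The authors' RPKM was recomputed from the counts, lengths and column totals, with a largest difference of 4.99e-07. Per the submitters' processing notes the tools include Bowtie2 2.2.3 and TopHat2 2.0.12, and the build is ASM294v2. The sources used here do not give the annotation release, strand setting or filters. The deposited coverage score exceeds 100 in 7 genes and served only to read off the length of a read and the spread of the ppr10 reads. A dash was read as 0. Of 5076 lengths, 5075 are multiples of 3, so they are coding lengths.

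Each column was assigned to its group through the labels. The members and gene lists were chosen with earlier results of these data known. RPKM was compared as log2((deletion + 1)/(wild type + 1)); a gene was called at 2-fold with a mean of at least 1 RPKM. With 1 library per group there is no p-value. Ratios have exact Clopper-Pearson 95% intervals and levels exact Poisson 95% intervals (SciPy 1.17.1). No molecular identifiers are stated, so reads may not be independent molecules and intervals cover counting error only. The calculation was tested on simulated data. Names, products, gene order, overlaps and sequence identity came from RefSeq ASM294v3 (5048 of 5076 identifiers matched by locus tag), a later build, so no coordinates or sequences are given. Protein identity was taken from global alignments (Biopython 1.88). The text names all members, their 2 nearest coding neighbours on each side, list genes past 2-fold or otherwise the 2 largest at a mean of at least 5 RPKM, and the 4 genes nearest to ght5.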

Additional observations from a re-analysis of the deposited data

How the results depend on the processing

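The count of members past the limit was 1, and ght5 was higher, under 5 or 0.1 RPKM added, without the filter on low values or with it at 5 RPKM, after rescaling to TPM or to the median gene, with library totals that leave out the 50 most abundant genes, and by a 1.5-fold rule. The 1.5-fold rule was applied with 1 RPKM added, and ght1 was past it with 0.1 RPKM added. Over the settings that recompute it, the log2 difference of ght5 ranged from 2.55 to 2.68 and that of ght4 from −0.54 to −0.43, while ght6 ranged from 0.00 to 0.09 and ght8 from 0.02 to 0.11. The median of the members was 0.0685 at a mean of at least 5 RPKM, where ght1 and ght3 are left out, against 0.20 with all 7. The ratio of the summed level, 1.33, was 1.37 after rescaling to TPM, 1.29 after scaling to the median gene and 1.05 without ght5. The settings without ght5 or hsp9, and those applied to single genes of the lists, were chosen after seeing the data. No paired analysis was possible because there are no replicates, which also means that none could be omitted. Depth limits ght1 and ght3, with 31 to 103 reads per library.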
